A study of Mus musculus with 6 samples.

Results

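The solute carrier (Slc) genes described here are the 153 whose summed read count over 6 libraries was at least 100. They come from 372 genes in the table with an Slc symbol followed by a number, left-out names aside, and from 21959 genes in all. They were chosen by the count sum alone, 5 named carriers of iron, serotonin and monoamines were left out of the set, and the rule does not use the difference between the groups. The set, its substrate groups and the gene lists below were nevertheless drawn up with earlier results of these data known. The study measured messenger RNA in wild-type primary mouse bone marrow-derived macrophages kept for 24 h in equal parts of fresh complete medium and medium conditioned by alveolar macrophages. Those alveolar macrophages, isolated as cells without or with the serotonin receptor HTR2C, came from mice 8 to 12 weeks old and were cultured for 48 h. There were 3 libraries with medium of HTR2C-negative cells (N1 to N3, the N libraries) and 3 with medium of HTR2C-positive cells (P1 to P3, the P libraries). Macrophages kept without conditioned medium were not analysed here, so levels with either medium have no untreated reference. The labels do not say whether the 3 samples of a group came from separate cultures or animals, and so the p-values rest on sample-to-sample spread that may be only technical. A lower level in bulk RNA can come from fewer cells that express a gene or from less RNA per cell, and these cannot be told apart.

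Solute carriers are membrane proteins that move small molecules without splitting ATP themselves. They use the gradients of sodium, protons or the substrate, or exchange one substrate for another. They are named by family number, and a family shares sequence and often substrate. In macrophages they feed activation: the cystine importer xCT, encoded by Slc7a11 and paired with Slc3a2, supports glutathione synthesis, Slc7a2 brings in the arginine used by nitric oxide synthase, glucose enters through Slc2a1, lactate leaves through Slc16a3, and carriers of lysosomes return amino acids, peptides, metals and heme from digested cargo. The Slc25 family, by contrast, links the cytosol with mitochondria.

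Libraries held 12843971 to 16031723 counts, of which the 153 genes took 1.07% to 1.16%. The macrophage markers Adgre1, Itgam, Csf1r, Lyz2, Cd68 and Mertk were all present, with summed levels of 18660 to 21910 CPM (read counts scaled to a common library total with TMM factors). Markers of neutrophils summed to 687 to 867 CPM in the N libraries and 850 to 1088 CPM in the P libraries, with Ly6g at 0 in all libraries. The markers of alveolar epithelium summed to at most 0.275 CPM, with Sftpc and Sftpb at 0. Markers of alveolar macrophages (Siglecf, Car4, Marco, Fabp4 and Chil3) summed to 133 to 138 CPM in the N libraries and 128 to 148 CPM in the P libraries. The 3 fibroblast markers summed to 19.1 to 27.1 and 22.2 to 36 CPM. The part of these cells in any value below was not tested. The pair of libraries with the highest correlation was N2 with P1 (r = 0.980 over log2 CPM), although their media differed. In 46 of the 153 solute carrier genes (30.1%) N2 was the highest of its group and P1 the highest of the other, against 19.8% of all 10177 tested genes. Fold changes without N2 or P1 are therefore given for some genes, but not for all.

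With the 5 left-out carriers aside, the table held 49 Slc families, and 39 had an expressed member. The Slc11 and Slc40 families are not among the 49. The Slc25 family had 32 expressed genes of 47, the nucleotide sugar carriers Slc35 19 of 27, the zinc importers Slc39 8 of 14 and the amino acid carriers Slc7 8 of 16. Families known from kidney, gut, liver and nerve were sparse: of the sodium-coupled Slc5 carriers 1 of 13 was expressed and 10 had no count in any library, and of the organic ion carriers Slc22 4 of 26 were expressed and 13 had no count. Over all families, 99 Slc genes had no count in any library, 65 had 1 to 9 counts and 55 had 10 to 99. A count of 0 allows up to 3 counts, or 0.171 to 0.265 CPM depending on the library, for counting error alone. Just under the threshold lay Slc25a16, Slc6a20b and Slc39a4, with summed counts of 91, 94 and 98, and just above it Slc41a3, Slc9a7 and Slc26a6, with 100, 101 and 109.

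A few genes carried most of the expression. On the deposited FPKM scale, which is per gene length and per library total and so allows levels of different genes to be set side by side, the 10 highest genes held 83.4% of the summed FPKM of the 153, 9 genes had a mean of at least 50 FPKM and 47 had a mean under 1. The median was 1.72 FPKM, against 2.37 over all tested genes. The metal and heme group took 61.1% of the sum, the Slc25 family 16%, amino acid carriers 8.45%, nucleoside carriers 3.82% and sugar carriers 2.96%.

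**Figure D1:**
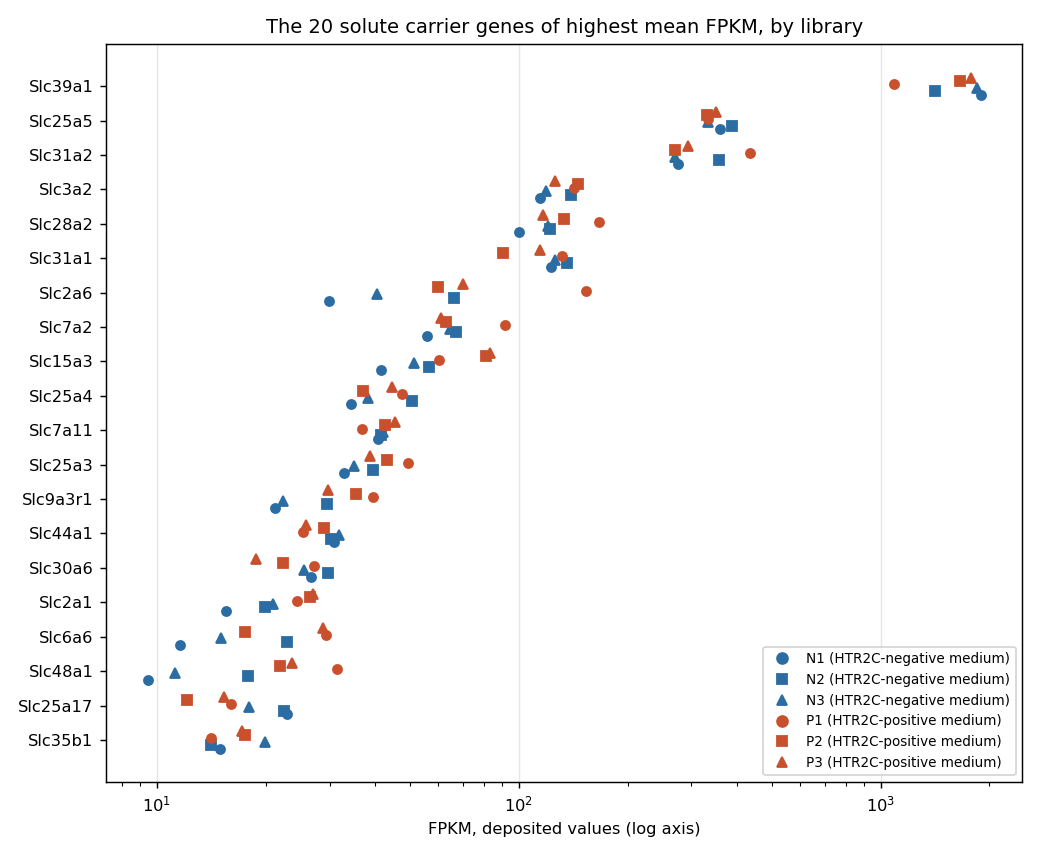
FPKM on a log axis for the 20 solute carrier genes of highest mean, each library as a point (circle, square and triangle for samples 1, 2 and 3 of a group; HTR2C-negative medium blue, HTR2C-positive red). Slc39a1 stands above all others at 1086 to 1892 FPKM, Slc2a6 spans 29.8 to 153 FPKM, and the points of the groups are mixed for most genes.

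Slc39a1, which encodes the zinc importer ZIP1, alone held 46.4% of the FPKM sum. Its values were 1892, 1411 and 1847 FPKM in N1 to N3 and 1086, 1656 and 1783 in P1 to P3. P1 was lowest and N2 next, and the groups overlapped. Next came Slc25a5, the ADP/ATP exchanger of the inner mitochondrial membrane, at 350 ± 22.6 FPKM (SD over 6 libraries), and Slc31a2, a copper transporter of endosomes and lysosomes, at 318 ± 67.1. These 2 did not separate by level beyond their spread. Slc3a2 (131 ± 13), Slc28a2 (127 ± 22.6) and the copper importer gene Slc31a1 (120 ± 16.4) were also within each other's spread, followed by Slc2a6 (70.0 ± 43.8), Slc7a2 (67.2 ± 12.7) and Slc15a3 (62.5 ± 16.7). Within a group, replicates of the 20 highest genes varied with a median coefficient of variation of 8.59% with HTR2C-negative and 15.5% with HTR2C-positive medium, and over all 153 genes with 23.7% and 21.4%.

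The comparison asked whether macrophages in medium of HTR2C-positive cells carried other transporter transcripts than those in medium of HTR2C-negative cells. No solute carrier gene passed the correction over all genes: 0 of 153 had an adjusted p under 0.05 with edgeR's quasi-likelihood test, as 0 of all 10177 tested genes did (0%), and the lowest adjusted p was 0.0805. At p under 0.05 before adjustment, 17 genes had higher values with HTR2C-positive medium and 7 lower. Over all tested genes the shares were 7.90% higher and 8.71% lower, and 16.6% either way, while the 24 genes here are 15.7% of 153, a share near the background. DESeq2 called 3 of the 153 at an adjusted p under 0.05 against 3.87% of all genes: Slc48a1 and Slc2a6 higher, and Slc25a17 lower. Limma-voom called 0 of 153 after adjustment, with 18 higher and 7 lower at p under 0.05 before adjustment. The shares of all tested genes with limma-voom are not given here. In 12 genes every library with HTR2C-positive medium was above every library with HTR2C-negative medium, and in 9 below, where 10.9% and 11.5% of all tested genes did so. The median log2 fold change (HTR2C-positive minus HTR2C-negative medium) was 0.05, beside 0.02 over all tested genes.

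Scaling matters for this split. With scaling by library totals in place of TMM, the median of all tested genes moved from 0.02 to 0.16 and that of the solute carriers to 0.20. Of the solute carriers 23 were then higher and 1 lower at p under 0.05 before adjustment. The shares of all tested genes under that scaling are not given here, so the 23 and 1 are no result about solute carriers. With the GC and length trend described below removed, the median of all tested genes was 0.04. All values below are relative to the TMM scale unless another is named.

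**Figure D2:**
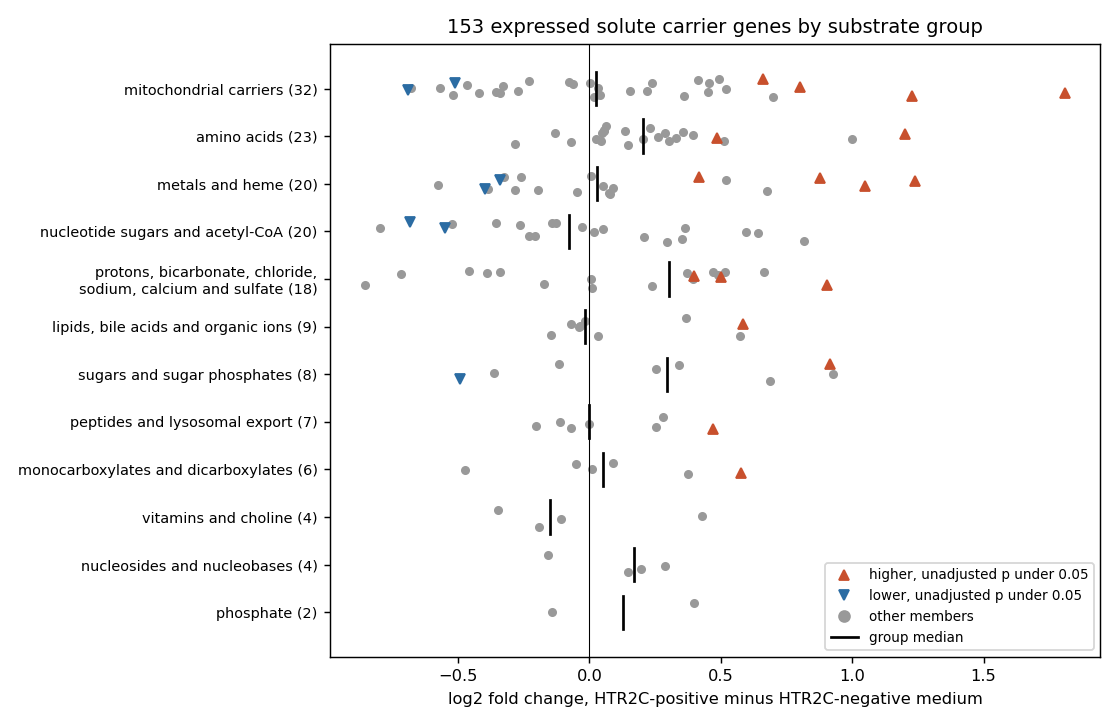
Log2 fold change of the 153 genes (horizontal axis) by substrate group (rows, number of genes in brackets), with triangles for genes at p under 0.05 before adjustment and a bar at each group's median. Most points lie between -0.5 and 0.5, and the row of the nucleotide sugar carriers has 2 lower and 0 higher genes at that threshold.

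The gene with the smallest p was Slc48a1 (ENSMUSG00000081534, chromosome 15, 97676401 to 97690573, GRCm39), which encodes the heme transporter HRG1. It moves heme out of the phagolysosome, where macrophages digest red cells. Its levels were 29.4, 46.4 and 33.2 CPM in N1 to N3 and 76.6, 62.7 and 61.1 CPM in P1 to P3. Every library with HTR2C-positive medium was above every other. The log2 fold change was 0.88 (SE 0.19), a ratio of 1.84, with an adjusted p of 0.0805 by edgeR and 0.00344 by DESeq2. It was 0.75 to 1.10 with each library left out in turn and 0.61 (SE 0.15) with the GC and length trend described below removed.

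Other carriers of metals gave a mixed picture. Of 20 genes in the group, 4 were higher and 2 lower at p under 0.05 before adjustment, 14 were neither, and the median was 0.03 (0.13 with the trend removed). This was 30% of the 20, against 16.6% of all tested genes (7.90% higher and 8.71% lower), in a small group drawn up with earlier results known. The zinc importer genes Slc39a14 and Slc39a3 were among the higher. Slc39a14, known as an acute-phase and inflammatory gene, was at 43.3, 45.6 and 49.1 CPM in the N libraries and 57.7, 72.4 and 54.4 CPM in the P libraries (log2 fold change 0.42, SE 0.16). The groups did not overlap, and the value was 0.44 once the GC and length trend was taken out. Slc39a3 was at 2.59 ± 0.732 and 5.33 ± 2.16 CPM (1.05, SE 0.38, 0.69 without library P1, 1.21 without N2 and 0.56 with the trend removed). The magnesium transporter gene Slc41a1 was at 0.700 ± 0.287 and 1.67 ± 0.305 CPM (1.24, SE 0.56, and 1.02 with the trend removed), on a summed count of 112.

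On the lower side were the copper importer gene Slc31a1 and Slc30a6, which encodes a zinc transporter of the Golgi. Slc31a1 was at 596, 552 and 580 CPM in the N libraries and 502, 403 and 460 CPM in the P libraries. Its log2 fold change was -0.34 (SE 0.15), and -0.10 with the trend removed. Slc30a6 was at 87.8 ± 4.48 and 66.5 ± 10.7 CPM (-0.40, SE 0.16), -0.27 without library P3 and -0.15 with the trend removed. In both genes the groups did not overlap. The abundant Slc39a1 had a log2 fold change of -0.33 (SE 0.24), which was -0.08 without P1, -0.20 without N1 and -0.50 without N2. Slc31a2, at 637, 687 and 592 CPM and 788, 572 and 562 CPM, had overlapping groups. Of the 6 Slc30 exporters 2 had positive fold changes (median -0.24), and of the 8 Slc39 importers 5 did (median 0.25), with median GC contents of 44.6% and 51.1%. With the trend removed the medians were -0.02 and 0.18, and scaled by library totals -0.10 and 0.38. All tested genes had medians of 0.04 and 0.16 in these 2 fits.

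**Figure D3:**
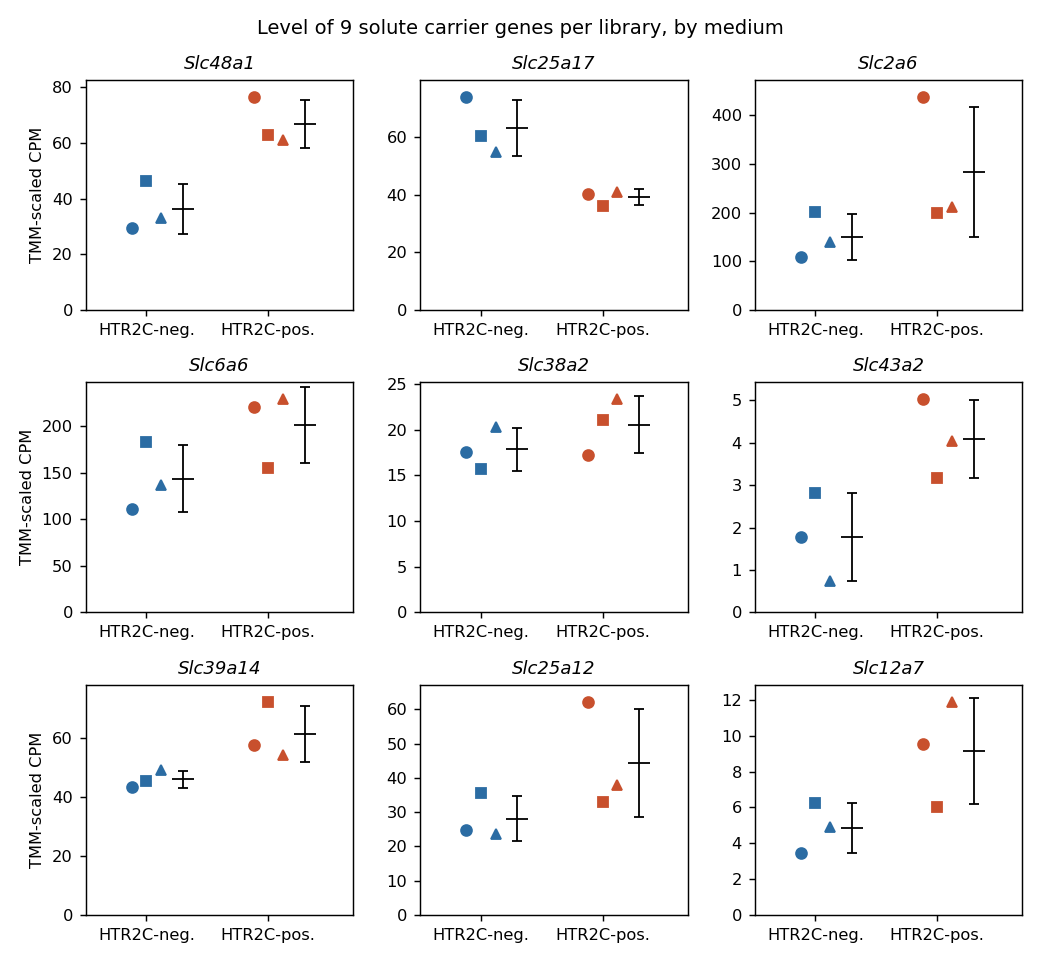
TMM-scaled CPM per library for 9 genes, with HTR2C-negative medium left and HTR2C-positive right in each panel, circles, squares and triangles for samples 1, 2 and 3, and the mean ± SD of 3 libraries beside them. In the Slc48a1 and Slc25a17 panels the groups stand apart, and in the Slc2a6 and Slc25a12 panels P1, at 438 and 62.3 CPM, lies far above P2 and P3.

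Amino acid carriers had mostly positive fold changes, 20 of 23 where 5301 of all 10177 tested genes were positive, with a median of 0.20. Only 2 were higher and 0 lower at p under 0.05 before adjustment, 8.70% of the 23 against 16.6% of all tested genes. With the trend removed 17 of 23 were positive and the median was 0.11. Slc43a2, which encodes the neutral amino acid transporter LAT4, was at 1.77, 2.82 and 0.739 CPM in N1 to N3 and 5.02, 3.18 and 4.05 CPM in P1 to P3. The groups did not overlap, on a summed count of 275, with a log2 fold change of 1.20 (SE 0.45) and 1.01 once the GC and length trend was taken out. The taurine transporter gene Slc6a6 was at 112, 183 and 137 CPM and 220, 155 and 229 CPM, so N2 lay above P2. Its log2 fold change was 0.49 (SE 0.20), 0.43 without P1, 0.70 without N2 and 0.42 with the trend removed.

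The abundant amino acid carriers of activated macrophages had overlapping groups. The cystine and glutamate exchanger gene Slc7a11 was at 609 ± 52.4 CPM in the N libraries and 557 ± 88.5 CPM in the P libraries (log2 fold change -0.13, SE 0.16, but 0.17 with the trend removed, 0.005 scaled by library totals and 0.01 without P1). Slc3a2, the heavy chain that carries xCT and other Slc7 light chains to the surface, was at 458 ± 6.28 and 466 ± 61.2 CPM (0.02, SE 0.15, and -0.14 with the trend removed). The arginine transporter gene Slc7a2 was at 578, 581 and 638 CPM and 745, 598 and 522 CPM, with P1 highest and P3 lowest of all. Slc7a8, a light chain for neutral amino acids, was at 55.7 ± 6.74 and 65.5 ± 5.41 CPM. Slc38a2, a glutamine and alanine importer induced by amino acid shortage, was at 17.9 ± 2.32 and 20.6 ± 3.09 CPM (0.20, SE 0.19, and 0.42 with an unadjusted p of 0.0364 once the trend was removed).

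Known targets of the amino acid response factor ATF4 were taken as a list of 12 genes, of which 8 were tested. None reached p under 0.05 before adjustment in either direction, where 16.6% of all tested genes did. The median was 0.25 (0.13 with the trend removed) and the lowest adjusted p was 0.588 by edgeR. Slc7a5 and Slc1a5, carriers of large neutral amino acids and of glutamine, were low in these cells, at 1.18 ± 0.158 and 2.24 ± 0.502 CPM in the N libraries and 1.48 ± 0.435 and 2.86 ± 0.662 CPM in the P libraries. Atf4 itself was at 43.4, 40.8 and 43.9 CPM and 59.9, 54.9 and 46.8 CPM, without overlap (log2 fold change 0.34, SE 0.15, adjusted p = 0.299 by edgeR, and 0.19 with the trend removed).

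The Slc7a11 promoter is printed because it holds the element that ATF4 is known to bind. RefSeq promoter windows (GRCm38.p6, 250 bases before to 50 after the start) were matched by symbol for 118 of the 153 genes. The core of the amino acid response element, TGATGNAA on either strand, was in the windows of 5 of them (4.24%), Slc7a11, Slc7a7, Slc9a9, Slc49a4 and Slc50a1, against 4.51% of windows of all 27025 genes and 2.89% of those of 8214 tested genes. The 250 bases before the Slc7a11 start (chr3:50443614-50443863, minus strand) hold it on both strands, shown in capitals, beginning 66 and 47 bases before the start.
Slc7a11: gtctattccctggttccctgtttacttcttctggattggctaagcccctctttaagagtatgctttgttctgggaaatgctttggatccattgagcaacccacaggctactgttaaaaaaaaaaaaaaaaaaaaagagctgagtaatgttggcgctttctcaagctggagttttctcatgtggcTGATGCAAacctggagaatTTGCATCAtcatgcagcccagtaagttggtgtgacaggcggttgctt
The core of the antioxidant response element, TGACNNNGC on either strand, was in 28 of the 118 windows (23.7%, against 14% of all genes and 17.3% of tested genes), and the lysosomal CLEAR box TCACGTGA in 4 (3.39%, against 1.12% and 2.37%). The windows of the members were richer in GC than all windows, with medians of 60.8% and 52.4% over the 250 bases. These matches describe letters and were not tested as binding sites.

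Sugar carriers included Slc2a6 (ENSMUSG00000036067, chromosome 2, 26911375 to 26918010, GRCm39), which encodes GLUT6, a hexose transporter of lysosomal membranes that is induced in inflammatory macrophages. It was at 109, 201 and 140 CPM in N1 to N3 and 438, 200 and 212 CPM in P1 to P3. P1 stood far above every other library and N2 lay between P2 and P3, so the groups overlapped. The log2 fold change was 0.92 (SE 0.29, adjusted p = 0.157 by edgeR and 0.0275 by DESeq2), but 0.48 without P1. It was 1.19 without N2, and 0.50 once the GC and length trend was taken out. The main glucose importer gene Slc2a1 was at 69.0 ± 9.06 and 87.4 ± 10.5 CPM with the groups overlapping in 1 library of each (0.34, SE 0.16, and 0.14 with the trend removed). Slc5a3, the myo-inositol importer gene that lies within the body of Mrps6, was at 15.8, 22.7 and 14.3 CPM and 13.9, 11.3 and 12.3 CPM (-0.49, SE 0.22, -0.26 without N2 and -0.22 with the trend removed). Its groups did not overlap.

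Among carriers of lactate and related acids, Slc16a3, the lactate exporter MCT4, was at 9.11, 16.4 and 10.7 CPM in the N libraries and 18.4, 15.5 and 20.2 CPM in the P libraries. N2 lay above P2, and the log2 fold change was 0.58 (SE 0.24), 0.87 without N2 and 0.22 with the trend removed. Its gene body overlaps that of Csnk1d on the other strand. The proton-coupled importer gene Slc16a1, at 31.6 ± 3.27 and 31.8 ± 6.81 CPM, and Slc16a10, which carries aromatic amino acids, at 90.3 ± 15.2 and 87.2 ± 17.9 CPM, had overlapping groups.

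The Slc25 family had 4 higher and 2 lower of 32 at p under 0.05 before adjustment, with a median of 0.02 (0.06 with the trend removed and 0.16 scaled by library totals). Its share at that threshold, 18.75%, was near the 16.6% of all tested genes. The lowest value by p was Slc25a17 (ENSMUSG00000022404, chromosome 15, 81203112 to 81245013, GRCm39), a member that sits in peroxisomes and carries coenzyme A and related cofactors. It was at 74.0, 60.5 and 55 CPM in N1 to N3 and 40.4, 35.9 and 40.9 CPM in P1 to P3, with no overlap. The log2 fold change was -0.69 (SE 0.16, a ratio of 0.619, adjusted p = 0.0859 by edgeR and 0.00951 by DESeq2). Leaving out each library in turn gave -0.77 to -0.57, and removing the GC and length trend -0.43 (SE 0.14). The mitochondrial NAD carrier gene Slc25a51 was at 29.4, 28.3 and 22.3 CPM and 24.7, 15.9 and 15.4 CPM (-0.51, SE 0.22, and -0.44 with the trend removed), with P1 above N3.

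Those with higher values carry aspartate, glutamate, dicarboxylates and glutathione. Slc25a12, the aspartate and glutamate exchanger of the malate-aspartate shuttle, was at 24.9, 35.6 and 23.7 CPM and 62.3, 32.9 and 38 CPM (0.66, SE 0.24, 0.36 without P1, 0.87 without N2 and 0.78 with the trend removed). The glutamate carrier gene Slc25a22 was at 18, 34.1 and 21.6 CPM and 69.2, 29.1 and 30.3 CPM (0.80, SE 0.32, but 0.29 without P1, 1.11 without N2 and 0.38 with the trend removed). In both, N2 was the highest of its group and lay above P2. The dicarboxylate carrier gene Slc25a10 was at 0.892 ± 0.541 and 3.10 ± 2.59 CPM, on a summed count of 191 (1.81, SE 0.70, 0.94 without P1 and 2.09 without N2). Slc25a39, which supplies mitochondria with glutathione, was at 1.44 ± 0.540 and 3.41 ± 1.25 CPM (1.23, SE 0.44, and 0.81 with the trend removed). The most abundant members had small differences. Slc25a5 was at 674, 604 and 591 CPM and 486, 567 and 543 CPM, without overlap (-0.23, SE 0.15, and -0.07 with the trend removed), Slc25a4 at 101 ± 10.9 and 96.3 ± 4.77 CPM and the phosphate carrier gene Slc25a3 at 208 ± 1.40 and 232 ± 25.2 CPM.

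Promoters are shown for the genes that DESeq2 called and that have a window, Slc2a6 (chr2:27027999-27028248, minus strand) and Slc25a17 (chr15:81360766-81361015, minus strand), both on GRCm38.p6 and the 250 bases before the start. Slc48a1 had no window. Neither holds a match to the 3 motifs, so no letter is in capitals. They have a GC content of 65.2% and 61.2%, with 20 and 14 CpG dinucleotides.
Slc2a6: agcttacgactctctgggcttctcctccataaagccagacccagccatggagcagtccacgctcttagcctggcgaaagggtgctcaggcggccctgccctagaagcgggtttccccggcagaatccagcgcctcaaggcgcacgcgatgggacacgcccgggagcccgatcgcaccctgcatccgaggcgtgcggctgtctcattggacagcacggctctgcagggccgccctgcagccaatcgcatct
Slc25a17: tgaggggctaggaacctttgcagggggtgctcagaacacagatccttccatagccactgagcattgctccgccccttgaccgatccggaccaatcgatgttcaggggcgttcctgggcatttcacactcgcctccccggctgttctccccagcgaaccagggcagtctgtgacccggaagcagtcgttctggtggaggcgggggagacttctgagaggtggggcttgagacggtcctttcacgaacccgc

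Carriers that bring nucleotide sugars and acetyl-CoA into the endoplasmic reticulum and Golgi had 9 positive and 11 negative fold changes (median -0.08). At p under 0.05 before adjustment 0 were higher and 2 lower, 10% of the group against 16.6% of all tested genes. The sign of the median turned with the trend removed (0.05) and with scaling by library totals (0.06). The medians of all tested genes were 0.02 in the main fit, 0.04 with the trend removed and 0.16 with library totals. The group thus stayed below all tested genes with library totals, and the turned sign alone does not show a changed position. With the trend removed 0 were lower at that threshold. Slc35d2, a carrier of UDP-N-acetylglucosamine, was at 18.8, 16.9 and 15.5 CPM in the N libraries and 11.7, 11.8 and 11.5 CPM in the P libraries. The groups did not overlap, and the log2 fold change was -0.55 (SE 0.19), -0.60 to -0.48 with each library left out and -0.33 once the GC and length trend was taken out. Slc35a5 was at 16.4 ± 3.26 and 10.2 ± 2.84 CPM (-0.68, SE 0.25, and -0.34 with the trend removed), with P1 above N2. Slc35b1, the most abundant at 16.3 ± 2.34 FPKM and known to exchange ATP for ADP across the endoplasmic reticulum membrane, was at 38.4 ± 9.13 and 34.8 ± 6.49 CPM. Slc35f5 was at 18.3 ± 3.40 and 15.6 ± 4.65 CPM, with overlap. Slc35a4 was highest in N2 and P1, at 30.2 CPM in N2 and 45.1 in P1 but 11 and 11.8 in N1 and N3 and 18.1 and 16.9 in P2 and P3. Its log2 fold change was 0.60 (SE 0.41), but 0.005 without P1 and 1.23 without N2.

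Ion exchangers and cotransporters had 12 positive fold changes of 18, a median of 0.30 and 3 higher and 0 lower at p under 0.05 before adjustment. The share at that threshold was 16.7%, beside 16.6% of all tested genes. With the trend removed the median was 0.08. The potassium and chloride cotransporter genes Slc12a7 and Slc12a4, which lower cell volume and chloride, were among the 3. Slc12a7 was at 3.45, 6.26 and 4.91 CPM and 9.53, 6.02 and 11.9 CPM, with N2 above P2 (0.90, SE 0.31, and 0.63 with the trend removed). Slc12a4 was at 16.4 ± 4.34 and 23.3 ± 3.72 CPM (0.50, SE 0.22, 0.31 without N1 and 0.10 with the trend removed). The third, Slc9a3r1, is not a carrier but a scaffold protein that binds sodium-proton exchangers. It was at 46.3, 53.6 and 46.3 CPM and 67.7, 71.1 and 53.9 CPM (0.40, SE 0.16, and 0.05 with the trend removed), and P3 exceeded N2 by less than 1 CPM. The rule on symbols brought in 2 more genes that are not carriers, Slc4a1ap and Slc7a6os, neither with p under 0.05 before adjustment.

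Lysosomal carriers were taken as a list of 20 genes, of which 15 were tested. Their median was 0.20 (0.09 with the trend removed), and 2 were higher and 0 lower at p under 0.05 before adjustment, Slc48a1 and Slc15a3. The share at that threshold was 13.3%, against 16.6% of all tested genes. Slc15a3, which exports histidine and small peptides from endolysosomes, was at 259, 294 and 305 CPM in N1 to N3 and 294, 464 and 431 CPM in P1 to P3. Here P1 was the low library of its group, below N3 and level with N2. The log2 fold change was 0.47 (SE 0.18), 0.66 without P1 and 0.11 with the trend removed. Its relative Slc15a4, which acts in the signalling of endosomal Toll-like receptors, was at 6.28, 6.94 and 7.19 CPM and 7.99, 7.48 and 9.37 CPM, without overlap. Slc66a1, which exports cationic amino acids from lysosomes, was at 9.83 ± 3.15 and 9.86 ± 2.08 CPM, and Slc66a2 at 13.7 ± 3.53 and 13.1 ± 5.37 CPM, both with overlap. Tasl, the adaptor that Slc15a4 holds at the endolysosome to activate IRF5, was at 124, 99 and 110 CPM and 77.0, 73.5 and 79.1 CPM, also without overlap but on the other side (-0.54, SE 0.15, adjusted p = 0.117 by edgeR, and -0.17 with the trend removed).

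Carriers known to be raised in inflammatory macrophages formed a list of 11 genes. Of these 10 had positive fold changes, with a median of 0.14, and 4 were higher and 0 lower at p under 0.05 before adjustment, Slc2a6, Slc15a3, Slc16a3 and Slc39a14. Over all tested genes 7.90% were higher and 5301 of 10177 positive, but the list was drawn up with earlier results of these data known and is no independent evidence. Without the GC and length trend 1 of them, Slc39a14, kept such a p. On the FPKM scale Slc28a2 came next to Slc31a2 in this list. It encodes the sodium-coupled importer of purine nucleosides and was at 477, 486 and 547 CPM and 624, 585 and 460 CPM (0.14, SE 0.16), with P3 the lowest of all.

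Smaller groups had few differences, where 16.6% of all tested genes had p under 0.05 before adjustment. Of 9 carriers of lipids, bile acids and organic ions, 1 was higher, the fatty acid transport protein gene Slc27a1, at 5.75, 9.08 and 8.81 CPM and 13.1, 10.9 and 11.6 CPM, without overlap (0.58, SE 0.24, and 0.11 with the trend removed). Slc10a3, the most abundant of the 9, whose body overlaps that of the more abundant Ubl4a on the same strand, was at 7.02 ± 2.57 and 6.34 ± 1.68 CPM. Slc27a4, a relative of Slc27a1, was at 6.63 ± 2.0 and 6.58 ± 1.41 CPM. Of the nucleoside carriers (4 genes), vitamin and choline carriers (4) and phosphate carriers (2), 0 had p under 0.05 before adjustment. The choline transporter gene Slc44a1 was at 244, 198 and 238 CPM and 156, 210 and 169 CPM (-0.35, SE 0.16, and -0.06 with the trend removed). The vitamin C transporter gene Slc23a2 was at 45.5 ± 2.84 and 42.2 ± 3.99 CPM, the equilibrative nucleoside carrier gene Slc29a1 at 13.2 ± 4.65 and 11.8 ± 2.55 CPM and the phosphate importer gene Slc20a1 at 24.2 ± 7.22 and 21.9 ± 1.86 CPM, all with overlapping groups. So were Slc29a3, a nucleoside carrier of lysosomes, at 8.90 ± 1.61 and 10.2 ± 0.571 CPM and the second phosphate importer gene Slc20a2 at 1.33 ± 0.298 and 1.76 ± 1.05 CPM. Slc44a2, a choline transporter-like gene, was at 11.8 ± 2.17 and 15.9 ± 1.42 CPM, without overlap.

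**Figure D4:**
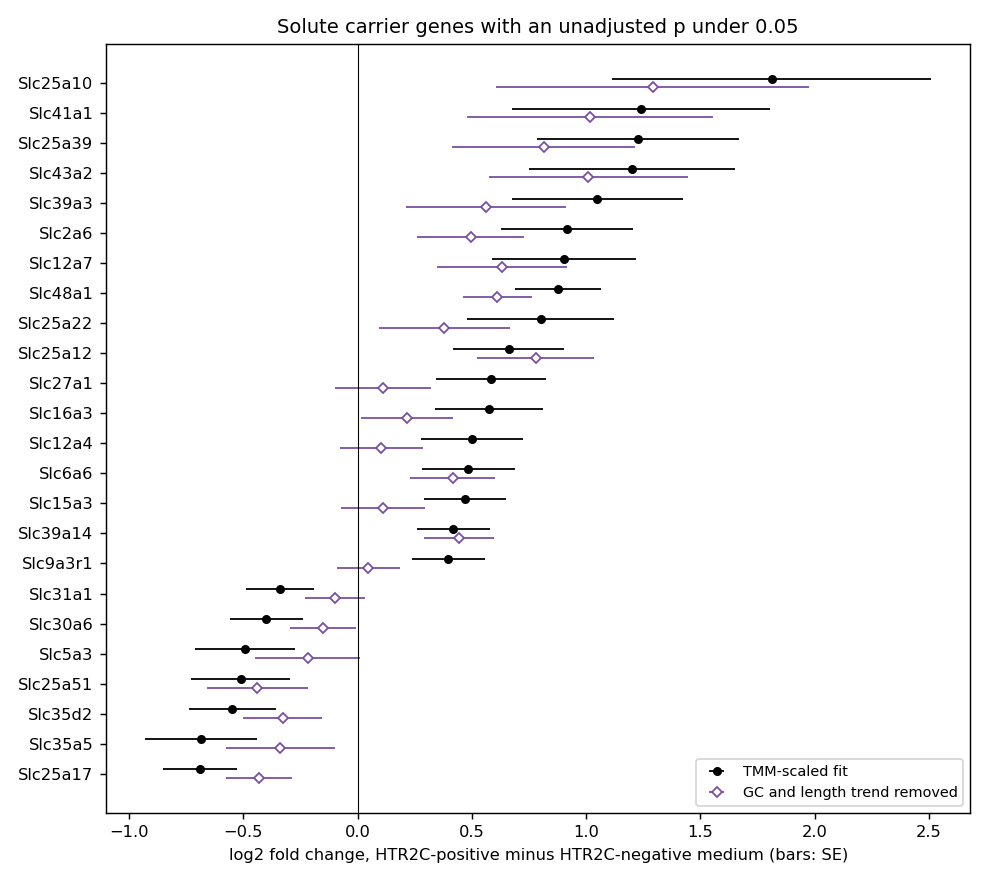
Log2 fold change with its SE (bars) for the 24 genes at p under 0.05 before adjustment, from the TMM-scaled fit (black circles) and with each library's trend on GC content and length removed (open diamonds). All 24 keep their sign, most diamonds lie nearer to 0, and Slc9a3r1 goes from 0.40 to 0.05.

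Fold changes of the solute carriers followed the GC content of their transcripts. The 17 genes with higher values had a median GC content of 56.6% (46.6% to 60.6%) and the 7 with lower values one of 44.8% (39.8% to 47.9%), beside 49.9% over the 153. Genes with under 45% GC had a median log2 fold change of -0.24 (10 of 34 positive), those with 45% to 55% one of 0.07 (49 of 81) and those with at least 55% one of 0.47 (32 of 38). All tested genes in the same classes had medians of -0.25, 0.04 and 0.40, so the solute carriers lay along the trend of the table. Across the 153 genes Pearson's r was 0.64 (0.53 over 10162 tested genes with a GC value), as a description of genes that share 6 libraries. With each library's trend on GC content and length removed, 7 genes were higher and 1 lower at p under 0.05 before adjustment, or 8 of 153 where 9.58% of all tested genes had such a p. These were Slc48a1, Slc39a14, Slc6a6, Slc38a2, Slc43a2, Slc25a12 and Slc12a7 on the higher and Slc25a17 on the lower side. The trend itself differs between the groups, so an effect of the medium that follows GC content and a technical one cannot be told apart here.

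**Figure D5:**
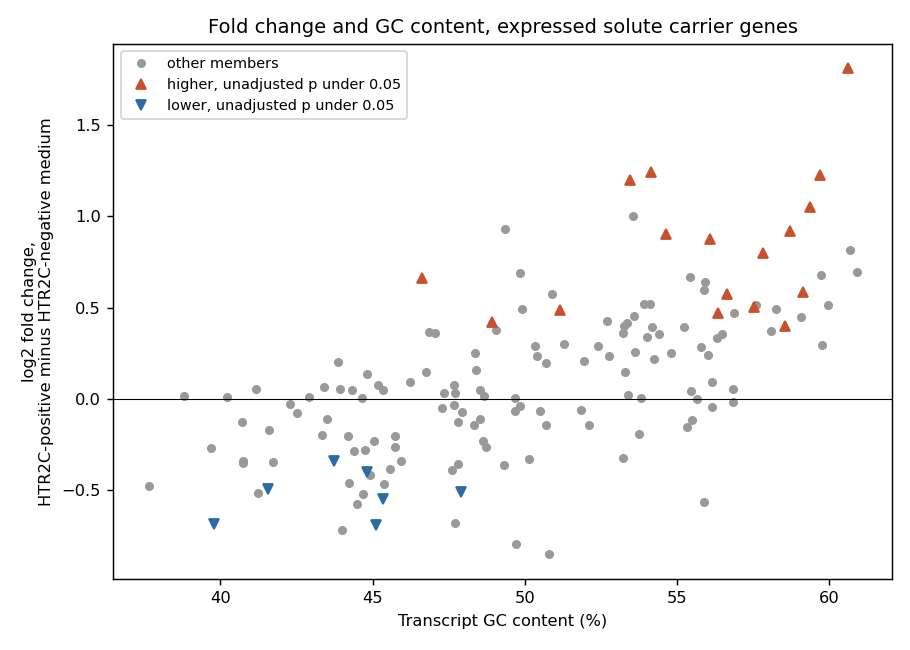
Log2 fold change (vertical axis) against transcript GC content in percent (horizontal axis) for the 153 genes, with triangles for the 24 at p under 0.05 before adjustment. Points climb from left to right, the 7 downward triangles all lie under 48% GC and the upward ones at 46.6% or more.

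Many of these p-values did not stay under 0.05 when a library was left out. Of the 24 genes, 4 kept p under 0.05 before adjustment with each library left out in turn, and 20 did not. The 4 were Slc48a1, Slc25a17, Slc2a6 and Slc35d2, although Slc2a6 fell from 0.92 to 0.48 without P1. Fewer libraries also lower the power, so a lost p does not show that a single library set the fold change. The share over all tested genes was not counted, so the 4 of 24 cannot be set against it. Of the 17 with higher values, 10 (58.8%) had N2 as the highest library of its group and P1 as that of the other. This was so in 30.1% of the 153 and 19.8% of all tested genes. The 17 were picked for high values in the P libraries, so these shares are not like for like.

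Partners that do not carry the Slc symbol were taken as a list of 27 genes, with 20 tested. Their median was 0.15 (0.18 with the trend removed), and 3 were higher and 1 lower at p under 0.05 before adjustment. This was 20% of those tested, against 16.6% of all tested genes. None of these 4 kept such a p once the trend was removed. The lower one was Tasl. The higher were Atf4, the lysosomal lipid exporter gene Spns1 (2.24 ± 0.440 and 3.91 ± 0.691 CPM, log2 fold change 0.80, SE 0.35, and 0.33 with the trend removed) and Unc93b1, which escorts nucleic acid-sensing Toll-like receptors to endosomes. Unc93b1 was at 61.4, 138 and 59.2 CPM and 302, 103 and 109 CPM, again with N2 and P1 high (0.99, SE 0.40, 0.32 without P1, 1.5 without N2 and 0.64 with the trend removed). The chaperones of lactate carriers, Bsg and Emb, were at 285 ± 12.6 and 268 ± 24.3 CPM and at 114 ± 11 and 95.0 ± 14.1 CPM. Bsg had a log2 fold change of -0.09 (SE 0.14), and of -0.41 with an unadjusted p of 0.0134 with the trend removed, the only partner with such a p in that fit. The gene of the sodium pump subunit Atp1b3, a pump whose gradient drives many carriers, was at 430 ± 8.66 and 445 ± 61.0 CPM. Mpc1, a subunit of the mitochondrial pyruvate carrier, was at 10.01 ± 0.127 and 8.09 ± 0.127 CPM, without overlap.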

How the data were processed

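RNA-seq read counts of mouse bone marrow-derived macrophages were analysed. Per the submitters' processing notes, fastp, HISAT2, StringTie and edgeR were used with the build GRCm39. How reads were assigned by strand, the tool versions and the gene annotation used: not given in the sources used here. Per the file headers, the deposited table gives, for each gene, a length and, for each library, the authors' read count and FPKM. The deposited FPKM equal count over length and total count within 3.80e-07.

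Counts were tested in R 4.3.3 with edgeR 4.0.16 (filterByExpr, TMM factors, robust quasi-likelihood F test, Benjamini-Hochberg over 10177 genes). All 153 members passed the filter. Values after ± are SDs over 3 libraries unless stated, and n is 3 per group throughout. DESeq2 1.42.0, limma-voom (limma 3.58.1) and other scalings, filters and fits were alternatives. The GC and length trend was removed as per-library spline offsets, with GC content from GENCODE M21 transcripts, found for 153 of 153 members. In 27 members the gene body overlaps another gene, in 10 of them one with more counts, and without stated strand use such reads cannot be told apart; among those named are Slc10a3, Slc16a3, Slc20a2 and Slc4a1ap.

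The fit was checked on simulated counts. The simulated libraries were independent and held no GC or length trend, so the check cannot speak to that trend or to the likeness of N2 and P1. The members, substrate groups and lists were chosen with earlier results of these data known. Named are the 3 highest by FPKM in each substrate group, up to 4 per group with an unadjusted p under 0.05 and no overlap, DESeq2 calls, members at the threshold and partners with such a p; the remaining members with such a p, and other well-known carriers, were added after their values were seen. Some genes that the rule or lists hold are not reported here.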

Additional observations from a re-analysis of the deposited data

How the results depend on the processing

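Counts of solute carrier genes past a threshold depend on the fit. Outside the main fit and the fit with the trend removed, shares of all tested genes at an unadjusted p under 0.05 are not given here. Nor are shares without overlap in the alternatives. Those counts of solute carriers therefore describe the fit alone. The signs of the 24 genes at an unadjusted p under 0.05 held in all 16 alternatives. These genes were picked by p from the same counts that the alternatives reuse, so kept signs are no independent support. Of the 24, 2 (Slc48a1 and Slc25a17) kept such a p in all 16. Genes passing the adjusted threshold numbered 0 in the edgeR fit, 394 with DESeq2 (3 solute carriers), 422 without a count filter (6), 0 to 206 with each library left out in turn (0 to 3) and 1107 without N2 and P1 (14). Solute carriers at an unadjusted p under 0.05, 17 higher and 7 lower, were 23 higher and 1 lower with total counts alone, 7 and 1 once the GC and length trend was taken out, and 5 to 23 higher and 3 to 11 lower with each library left out. With both N2 and P1 left out, 24 had higher and 11 lower values. This pair was singled out for its likeness across the groups, so leaving it out itself favours a wider difference. The counts without N2 and P1, 1107 included, are therefore no evidence of a difference. With the replicate number as a block 11 were higher and 5 lower, and with block and trend removal 5 and 2. Samples with equal numbers had deviations with correlations of -0.15, -0.23 and 0.05, and not every sample correlated best with its own number. The value for N2 with P1 was 0.31. These values rest on 3 libraries per group, too few to decide pairing. Whether equal numbers mark a shared culture, day or animal was not tested. Genes without overlap, 21, were 30 to 46 with each library left out and 71 without both, where fewer samples ease the condition. The median, 0.05, was 0.20 with total counts and 0.028 to 0.16 with each library left out. The sign turned for Slc7a11 with total counts (0.0045), with the trend removed (0.17), with block and trend removal (0.17) and without P1 (0.014, in a range of -0.22 to 0.014), and for Slc3a2 with the trend removed (-0.14), with block and trend removal (-0.15) and without P2 (-0.089, in a range of -0.089 to 0.10). The higher threshold on the summed count gave 13 higher and 7 lower. The cause was not tested. Means of FPKM moved by less than 1 SD with any library left out, in 35 of 35 genes. Leaving out 1 of 6 libraries cannot move a mean by more than that, so this is no evidence of stable levels. Depth limits the genes of low count most: the SE of the log2 fold change was 0.56 for Slc41a1 and 0.70 for Slc25a10, against 0.15 for Slc31a1.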
